A study of Mus musculus with 5 samples.

Results

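This report describes the transcripts of the general transcription machinery in cardiac fibroblasts (CF), measured by SLAMseq. The genes were taken by name: the subunits of the nuclear RNA polymerases (*Polr1*, *Polr2* and *Polr3* genes), the numbered Mediator subunits (*Med* genes), the TBP-associated factors (*Taf* genes) and the general transcription factors (*Gtf2* and *Gtf3* genes). The rule found 105 genes of 20365 gene names in the tables. There were 28 polymerase genes, 30 Mediator genes and 47 TAF and GTF genes, the last group called TAF/GTF here. The rule used names only and no measured value, but it was chosen with earlier results of these data known. The interval that stands for a gene with several was the one with the highest mean deposited CPM in the labeled libraries, so a measured level of that group chose which reads were compared.

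The CF came from hearts of healthy adult male wildtype C57Bl/6J mice. They were isolated with collagenase, depleted of CD31+ and CD45+ cells on magnetic beads and grown to confluency, so the values describe cultured cells. In the labeled group, 3 libraries were made from cells kept for 12 h with 0.1 mM 4-thiouridine (S4U), a uridine analog that cells build into RNA. In the unlabeled group, 2 libraries came from cells kept for 12 h without S4U. RNA of both groups was alkylated with iodoacetamide and sequenced from the 3′ end. The sequencer then calls C at an incorporated S4U where the genome has T. The T>C rate, conversions per covered T position, rises with the share of a transcript made during labeling. By the study's methods, the replicates of SLAMseq were separate CF preparations. The unlabeled cells were cultured at the same time as the labeled ones, and the sources used here do not say which preparation each library came from.

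RNA polymerase I makes ribosomal RNA, polymerase II makes messenger RNA, and polymerase III makes transfer RNA and other short RNAs. At a polymerase II promoter, TFIID (TBP with its TAFs) and TFIIA bind DNA, TFIIB bridges TFIID and the polymerase, and TFIIF, TFIIE and TFIIH complete the complex. Mediator carries the signal of DNA-bound activators to this complex through its tail, middle and head modules, and its kinase module acts as a reversible regulator.

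The reads lie in the 3′ ends of the transcripts, and 30 bases around motifs are shown for the members at the ends of the T>C rate order described further on. The first set belongs to *Gtf2b*, which encodes TFIIB and had the highest rate of the members tested. It holds 2 copies of TGTANATA, the core of the Pumilio element, and an AATAAA polyadenylation signal. The second set shows the only ATTTA of *Gtf2h5*, the polyadenylation signals of *Med27* and *Polr2l*, all with low rates, and an ATTTA of *Med30*, with a high rate. The last shows the polyadenylation signal of *Polr2a*, the largest subunit of polymerase II. All are GRCm39 sequences of the transcribed strand, and capitals mark the motif.

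Gtf2b TGTANATA, chr3:142489130-142489159, plus strand: atatggaacttTGTACATAgccacacagtg
Gtf2b TGTANATA, chr3:142489224-142489253, plus strand: agtcttctgtaTGTATATActagtgcaaca
Gtf2b AATAAA, chr3:142489336-142489365, plus strand: atgtaattctcaAATAAAaatttaaaacca
Gtf2h5 ATTTA, chr17:6135644-6135673, plus strand: attatgcttaatATTTAtagagattacggt
Med27 AATAAA, chr2:29414769-29414798, plus strand: atttttgtaaacAATAAAgcttttgtaccc
Polr2l AATAAA, chr7:141051773-141051802, minus strand: tgtacttacatatattAATAAAtaaatctt
Med30 ATTTA, chr15:52593632-52593661, plus strand: ttgaaaaacgttATTTAtgtctttatttta
Polr2a AATAAA, chr11:69624832-69624861, minus strand: ttttgaaattgaAATAAAgtttactaattt

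ATTTA, the core of AU-rich elements, was found in 72.0% of the 50 members with enough coverage for a rate and in 76.7% of 5556 genes with the same coverage. TGTANATA was found in 34% and 32.4%, and TTATTTATT, which contains ATTTA, in 12.0% and 8.95%. AATAAA lay in the last 50 bases of 80.0% of the members' intervals and of 68.8% of those of the 5556 genes, and either AATAAA or ATTAAA in 88.0% and 84.0%. Only the transcribed strand was searched. The interval of *Gtf2b* is 277 bases long, and of 620 gene intervals of up to 300 bases, 6.77% held TGTANATA. Among the 9 members' intervals of that length, 3 did. The *Gtf2b* interval also holds 2 copies of ATTTA. *Gtf2h5* had neither polyadenylation signal in its last 50 bases. A match is a description of the sequence and no measure of a bound factor.

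Counted reads, taken over 1 interval of each gene, numbered from 506045 in labeled replicate 3 to 1842898 in unlabeled replicate 1. The members held 0.406% to 0.449% of them, or 2089 to 8267 reads. Fibroblast markers summed to between 31374 and 42382 CPM, and endothelial markers to between 96.4 and 214 CPM. Immune markers summed to at most 57.7 CPM, mural markers to 13.8, epicardial markers to 5.93 and cardiomyocyte markers to 7.03 CPM, with *Actn2*, *Ryr2* and *Msln* at 0 reads in every library. The replicate 1 libraries of both groups stood apart in read levels. Of the 91 members with enough reads for a test, both replicate 1 libraries were below the other 3 libraries for 26 and above them for 27, where 22.7% and 30.0% of all 9807 genes did so.

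**Figure D1:**
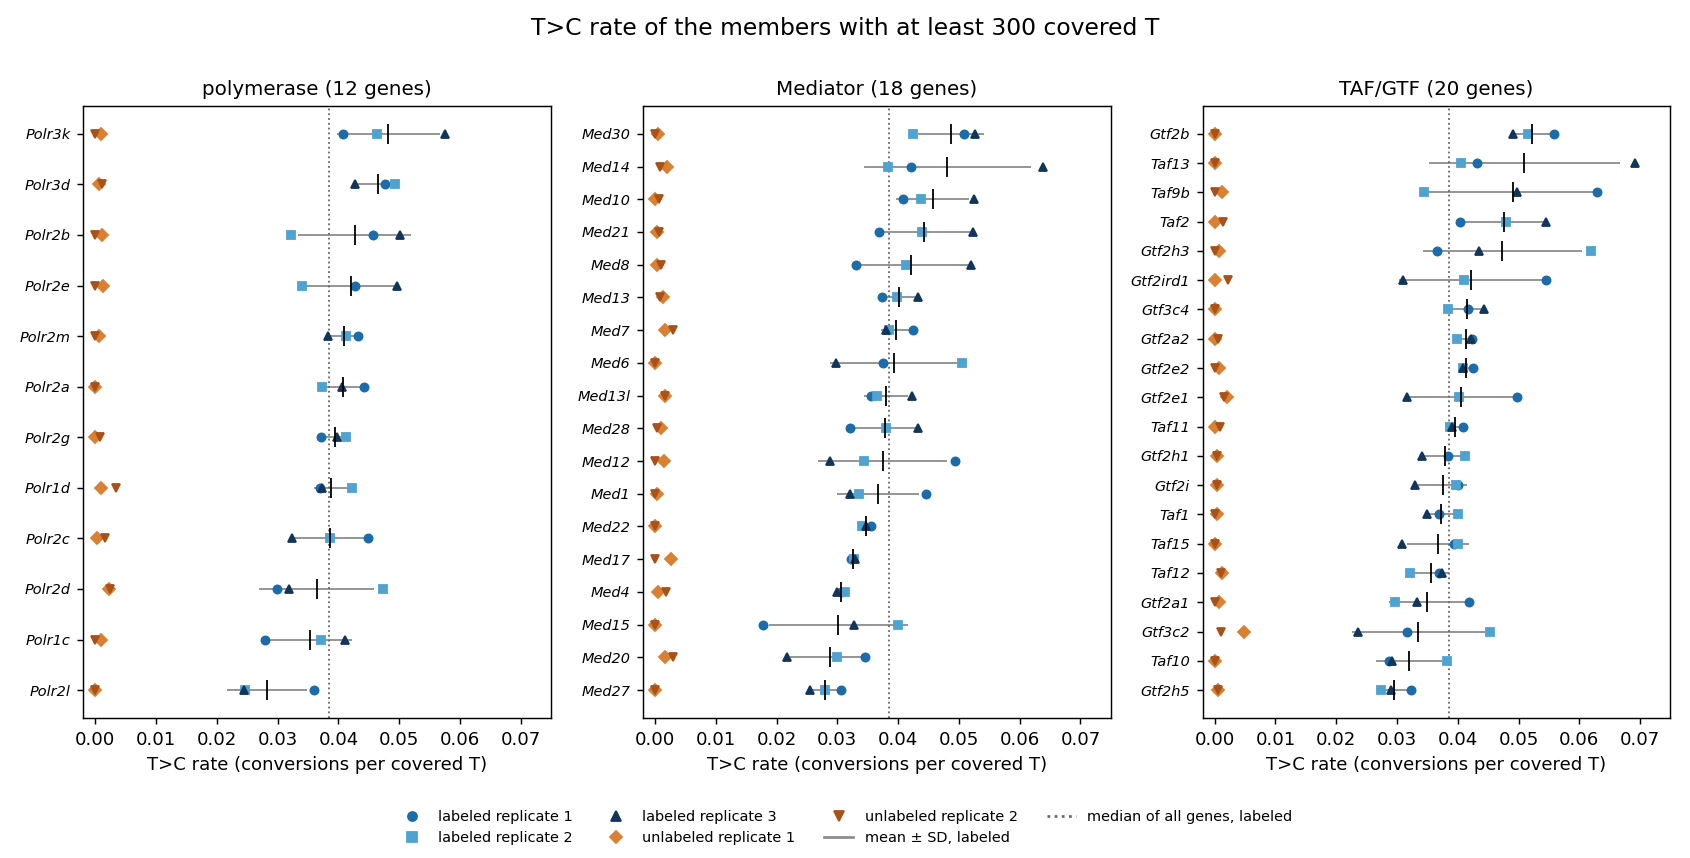
T>C rate (x axis, conversions per covered T position) of the 50 members that had 300 or more covered T positions in each labeled library. Symbols are single libraries, black ticks with grey bars are the mean ± SD of the 3 labeled libraries, and the dotted line is the median of 5557 genes. Labeled libraries lie at 0.0177 or above for every gene shown, and unlabeled rates, pooled over both libraries, lie at 0.00325 or below.

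S4U labeling was seen in nearly all members with reads. Of the 105 members, *Gtf2a1l*, *Taf7l* and *Taf7l2* had 0 reads in every library, and *Med12l*, *Taf6l* and *Polr2k* had none in at least 1 labeled library. A rate could be compared for 99 members, and S4U raised it for 97 of them (beta-binomial likelihood-ratio test, unadjusted p below 0.05). The share over all genes compared the same way was 95.2% of 11179. The 2 others, named here after their values were seen, were *Gtf2f1*, counted on an interval of 26 bases, and *Polr1e*. Their p-values in the beta-binomial test were 0.0777 and 0.0821. Every labeled library was above both unlabeled ones for 94 members, with 90.4% of all genes. The unlabeled libraries showed 151 conversions in 173058 and 60 in 88832 covered T positions of the members. Of the 50 members that had 300 or more covered T positions in each labeled library, 11 had no conversion in either unlabeled library. One of these was *Gtf2b*, with 0 of 2944 positions, which allows a rate of up to 0.00102 for counting error only.

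The order of the class medians of the T>C rate depended on the libraries and the coverage asked for. The class medians of the labeled libraries, as mean ± SD of 3 libraries, were 0.0407 ± 0.00101 for 12 polymerase genes, 0.0369 ± 0.00108 for 18 Mediator genes and 0.0389 ± 0.00238 for 20 TAF/GTF genes. The median over all 5557 genes was 0.0385 ± 0.000592. In labeled replicates 1, 2 and 3, the polymerase median was 0.0418, 0.0399 and 0.0402, and the Mediator median was 0.0362, 0.0381 and 0.0364. The polymerase median was thus the higher in all 3 libraries, by 0.00374 ± 0.00192. The TAF/GTF median was 0.0406, 0.0400 and 0.0362, and lay above the Mediator median in 2 of 3 libraries. The SD of the mean rates among the genes of a class was 0.00521 for polymerase genes and 0.00633 for each of the other classes. The differences between classes are descriptions, with no test. With conversions and covered T positions summed over the members of a class, the values were 0.0406, 0.0390 and 0.0383 for polymerase, Mediator and TAF/GTF, so that the order of Mediator and TAF/GTF turned. With 100 or more covered T positions, the median was 0.0376 for polymerase and 0.0393 for TAF/GTF genes, and without labeled replicate 3 it was 0.0399 and 0.0402, so that TAF/GTF came first. With 1000 or more, TAF/GTF at 0.0365 ± 0.00341 over 3 genes was below Mediator at 0.0387 ± 0.00353 over 4 genes, so few genes carry this order. As a comparison, 71 zinc finger genes (*Zfp*) had a median of 0.0374 ± 0.000819 and 36 proteasome subunits one of 0.0390 ± 0.000796.

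The spread among members was taken over means of 3 libraries, and the spread of a member over single libraries, so the values of these 2 measures are not on one footing. The SD of the mean rates was 0.00606 among the 50 members and 0.00805 among all 5557 genes. The median SD over the 3 labeled libraries was 0.00553 for a member and 0.00439 for a gene of all 5557. The Spearman correlation of member rates between labeled libraries was 0.17, 0.34 and 0.35 across the 50 genes, against 0.49, 0.42 and 0.43 across all genes.

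To ask which members stand off the typical gene, the log odds of a conversion minus the median of its library were tested with limma in the labeled libraries. *Gtf2b* passed above the median and *Gtf2h5* below it, each 1 of 50 members at an adjusted p below 0.05 over 5557 genes. Over all genes, 6.50% were above and 12.2% below. At an unadjusted p below 0.05, 6 members were above, with 13.2% of all genes, and 4 below, with 16.4% of all genes. The 95% interval of 40 of the 50 members held the library median. It reached 0.08 to 0.31 to either side in natural log odds, with a median of 0.19, a 1.21-fold change of the odds. A departure smaller than the reach of a member's own interval was not detectable with these libraries. A larger one could also go uncalled, since calls used the adjusted p. *Med27* was such a case, with an interval from -0.54 to -0.04 (limma, adjusted p = 0.104). The rate was above the library median in every labeled library for 9 members, with 23.2% of all genes, and below it in every labeled library for 9, with 23.9% of all genes.

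*Gtf2b* (ENSMUSG00000028271.11) encodes TFIIB, the factor that places polymerase II at the start site. Its interval lies in the 3′ UTR on the plus strand of chromosome 3, from 142489091 to 142489367. The T>C rate was 0.0559, 0.0515 and 0.0491 in labeled replicates 1, 2 and 3, and 0 in both unlabeled libraries. All 3 labeled libraries lay above their library median, and the mean was higher than that of 99.0% of the genes. The log odds exceeded the library median by 0.35 (standard error 0.07, limma with Benjamini-Hochberg adjustment, adjusted p = 0.00298), an odds ratio of 1.42 with a 95% interval from 1.21 to 1.66. Conversions were present on 64.6%, 75% and 62.5% of its labeled reads. Its level was ordinary, at 52.0, 40.2 and 31.6 CPM in the labeled and 36.9 and 37.1 CPM in the unlabeled libraries. Without labeled replicate 1 the difference was 0.29 with an adjusted p of 0.107, so the call rests on that library. Over all alternatives that gave a value, its adjusted p was between 0.000394 and 0.107.

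*Gtf2h5* (ENSMUSG00000034345.16) encodes the smallest subunit of TFIIH, the factor that opens promoter DNA and also acts in DNA repair. Its interval lies in the 3′ UTR on the plus strand of chromosome 17, from 6134928 to 6135763. The T>C rate was 0.0322, 0.0273 and 0.0289 in the labeled and 0.000465 and 0.000617 in the unlabeled libraries. All 3 labeled libraries lay below their library median. The log odds were below the median by 0.27 (limma estimate -0.27, standard error 0.06, adjusted p = 0.00390), an odds ratio of 0.764 with a 95% interval from 0.673 to 0.868. Conversions were on 34.8%, 34.8% and 33.1% of its labeled reads. It was also the most abundant TAF/GTF transcript, at 204, 190 and 251 CPM in the labeled and 206 and 171 CPM in the unlabeled libraries. Without labeled replicate 2 the estimate was -0.21 with an adjusted p of 0.0732, and without precision weights it was -0.28 with an adjusted p of 0.0813. Over all alternatives the adjusted p was between 9.75e-09 and 0.0813.

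**Figure D2:**
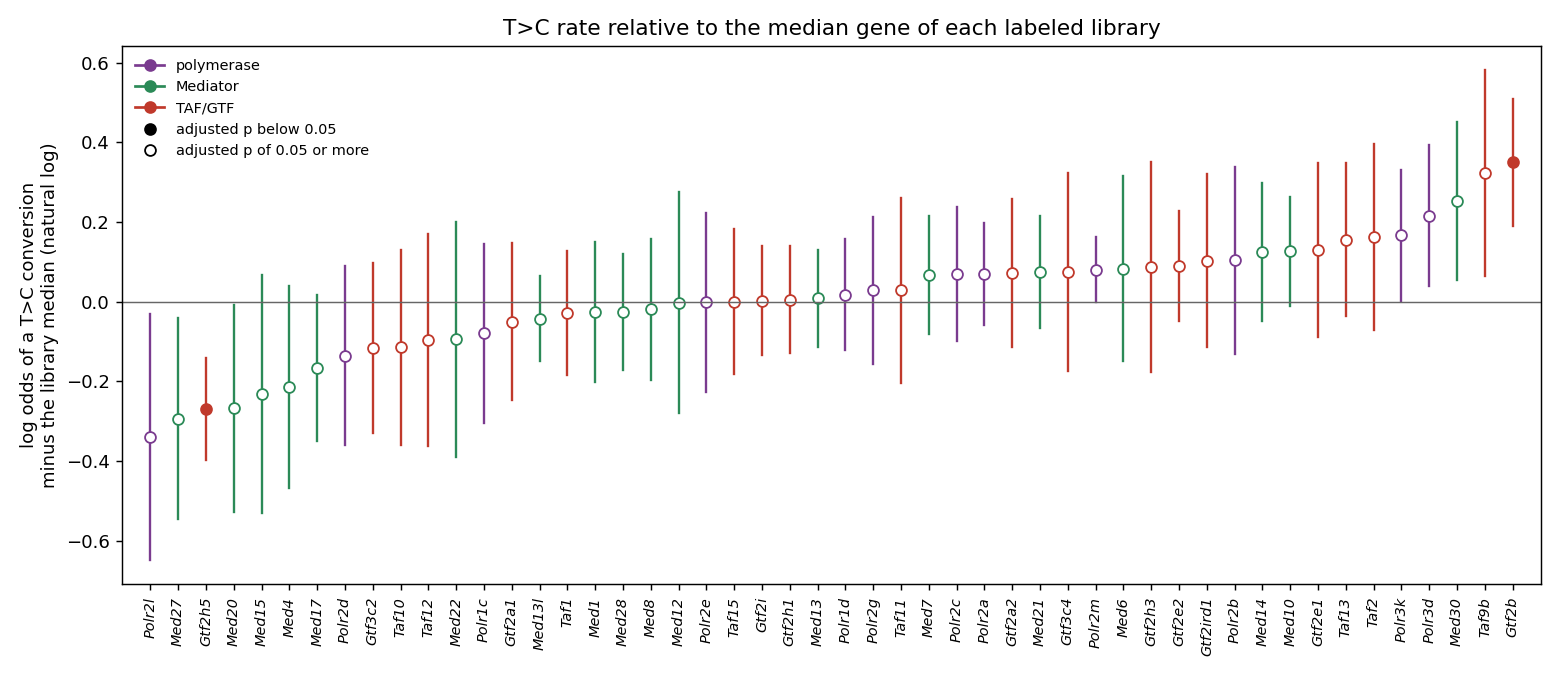
Log odds of a T>C conversion minus the median of all genes in the same library (y axis, natural log), for the 50 members in order. Points are limma estimates, bars are 95% intervals, and colours are the classes. Filled points mark the adjusted p below 0.05, which were *Gtf2h5* at -0.27 and *Gtf2b* at 0.35.

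Among the polymerase genes, *Polr2a*, which carries the catalytic site and the C-terminal repeat domain, had T>C rates of 0.0442, 0.0372 and 0.0406 in labeled replicates 1, 2 and 3. *Polr2b*, its partner as the second largest subunit, had 0.0458, 0.0323 and 0.0501. The rates of both fell on either side of the library medians of 0.0378, 0.0389 and 0.0388. Both passed above the library median by the share of reads with a conversion, as did 18.1% of all genes. Unlike the T>C rate, this share also depends on how many T positions a read covers. *Polr2e*, a subunit common to all nuclear polymerases, had 0.0428, 0.0340 and 0.0497, and *Polr2c*, of the polymerase II assembly platform, had 0.0448, 0.0386 and 0.0324. *Polr2d*, part of the stalk of polymerase II, had 0.0299, 0.0473 and 0.0319. The ranges of these genes over the labeled libraries overlapped.

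Of the 12 polymerase genes with enough coverage, the highest rates were those of polymerase III subunits. *Polr3k*, the subunit tied to RNA cleavage and termination, had T>C rates of 0.0408, 0.0463 and 0.0575. *Polr3d* had 0.0477, 0.0493 and 0.0427. Both were above the library median in all 3 labeled libraries, with adjusted p from limma of 0.161 and 0.0887. These were the only polymerase III genes of 10 with 300 or more covered T positions. The lowest of the 12 was *Polr2l*, a small subunit common to all nuclear polymerases, with rates of 0.0359, 0.0246 and 0.0244, all below the library medians (limma estimate -0.34, standard error 0.14, adjusted p = 0.127). Its interval overlaps *Cd151* on the opposite strand. *Polr1c*, shared by polymerases I and III, followed with 0.0280, 0.0371 and 0.0412. By the share of reads with a conversion, *Polr3k* passed above and *Polr2l* below the library median, where 18.1% and 23.8% of all genes did. The largest subunits of polymerases I and III were too thinly covered for the test. *Polr1a* had a mean rate of 0.0282 ± 0.00892 (SD, n = 3) with as few as 111 covered T positions in a library, and *Polr3a* one of 0.0421 ± 0.0149 with 119. *Polr1b* and *Polr3b* had as few as 14 and 36.

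Among the Mediator modules, the head had a lower median T>C rate than the middle in all 3 labeled libraries. The head had 0.0345, 0.0341 and 0.0330 in labeled replicates 1, 2 and 3, and the middle had 0.0408, 0.0384 and 0.0380. This is a description, with no test. The genes of both modules overlapped, with mean rates from 0.0287 to 0.0421 in the head and from 0.0306 to 0.0457 in the middle. The SD among genes was 0.00530 and 0.00608. Over the 3 libraries, the head genes had a median of 0.0339 ± 0.000804 over 5 genes, the middle genes 0.0391 ± 0.00152 over 5, the kinase module 0.0387 ± 0.00309 over 3, and the tail, in which *Med27* to *Med30* were counted, 0.0361 ± 0.00417 over 4. *Med14*, the scaffold that joins head, middle and tail, had T>C rates of 0.0421, 0.0383 and 0.0639, in which labeled replicate 3 stood far above the others. *Med1*, which contacts nuclear receptors, had 0.0445, 0.0335 and 0.0321, and only labeled replicate 1 was above its library median. *Med12*, *Med13* and *Med13l*, of the kinase module, had means of 0.0375 ± 0.0106, 0.0402 ± 0.00293 and 0.0381 ± 0.00363. None of the 18 Mediator genes passed the limma test in either direction, where 6.50% of all genes were above and 12.2% below. *Med21* passed above by the share of reads with a conversion, as did 18.1% of all genes.

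At the high end of the 18 Mediator genes, *Med30* had T>C rates of 0.0508, 0.0424 and 0.0526, above the library median in all 3 labeled libraries (limma, adjusted p = 0.0751), and its interval of 269 bases holds 4 copies of ATTTA. *Med10* and *Med21*, of the middle module, came next to *Med14* with 0.0457 ± 0.00604 and 0.0443 ± 0.00771. *Med27* was the lowest of the 18, with 0.0306, 0.0280 and 0.0255, below the library median in all 3 (adjusted p = 0.104). *Med20* had 0.0345, 0.0299 and 0.0217 (adjusted p = 0.155), and a second gene model, *Gm20517*, covers its interval on the same strand. *Med15* had 0.0177, 0.0400 and 0.0328, with labeled replicate 1 far below the others. *Med4* had 0.0307, 0.0312 and 0.03, the closest replicates of this low group. Both *Med4* and *Med30* sat at the edge of the coverage asked for, with as few as 300 and 304 covered T positions in a labeled library.

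The TAF/GTF genes held both members that passed the test. After *Gtf2b*, the highest T>C rates of the 20 genes were those of TFIID genes. *Taf13* had 0.0432, 0.0406 and 0.0691, *Taf9b* had 0.0629, 0.0344 and 0.0497, and *Taf2* had 0.0403, 0.0480 and 0.0546. *Taf13* and *Taf2* were above the library median in all 3 labeled libraries, and their adjusted p from limma were 0.279 and 0.365. *Taf9b* fell below the median in labeled replicate 2 (adjusted p = 0.0794). It passed above the median without labeled replicate 2 and without labeled replicate 3, as did 3.83% and 6.20% of all genes. At the low end, *Taf10*, a histone-fold TAF of TFIID, had 0.0286, 0.0383 and 0.0292. *Gtf3c2*, of the polymerase III factor TFIIIC, had 0.0317, 0.0452 and 0.0236, and *Gm29609* covers its interval on the same strand. *Gtf2a1*, which encodes the large chains of TFIIA, had 0.0419, 0.0297 and 0.0333. *Taf1*, the scaffold of TFIID, had 0.0369, 0.0400 and 0.0349, and *Gtf2i*, the founding gene of the TFII-I family, had 0.0400, 0.0397 and 0.0329. In rate, both lay near the typical gene, with adjusted p from limma of 0.849 and 0.987. By the share of reads with a conversion, *Gtf2b*, *Taf1*, *Taf2*, *Taf9b* and *Taf13* passed above the library median, and *Gtf2h5* and *Gtf3c2* below it. Of all genes, 18.1% and 23.8% did so.

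The T>C rate was also set beside the base composition and level of the members. The Spearman correlation of the T>C rate with the share of T in the interval was 0.40 across the 50 members and 0.27 across 5556 genes. With the number of ATTTA per kb it was 0.45 and 0.22. With the level it was -0.06 and -0.09, and with the interval length -0.07 and 0.13. The classes differed in sign or size. With the level, the correlation was 0.09 across 12 polymerase, 0.37 across 18 Mediator and -0.51 across 20 TAF/GTF genes. With the share of T it was 0.02, 0.75 and 0.29. These points share libraries and base composition, and both measures of sequence count T. The values are descriptions across genes, which are not independent replicates.

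**Figure D3:**
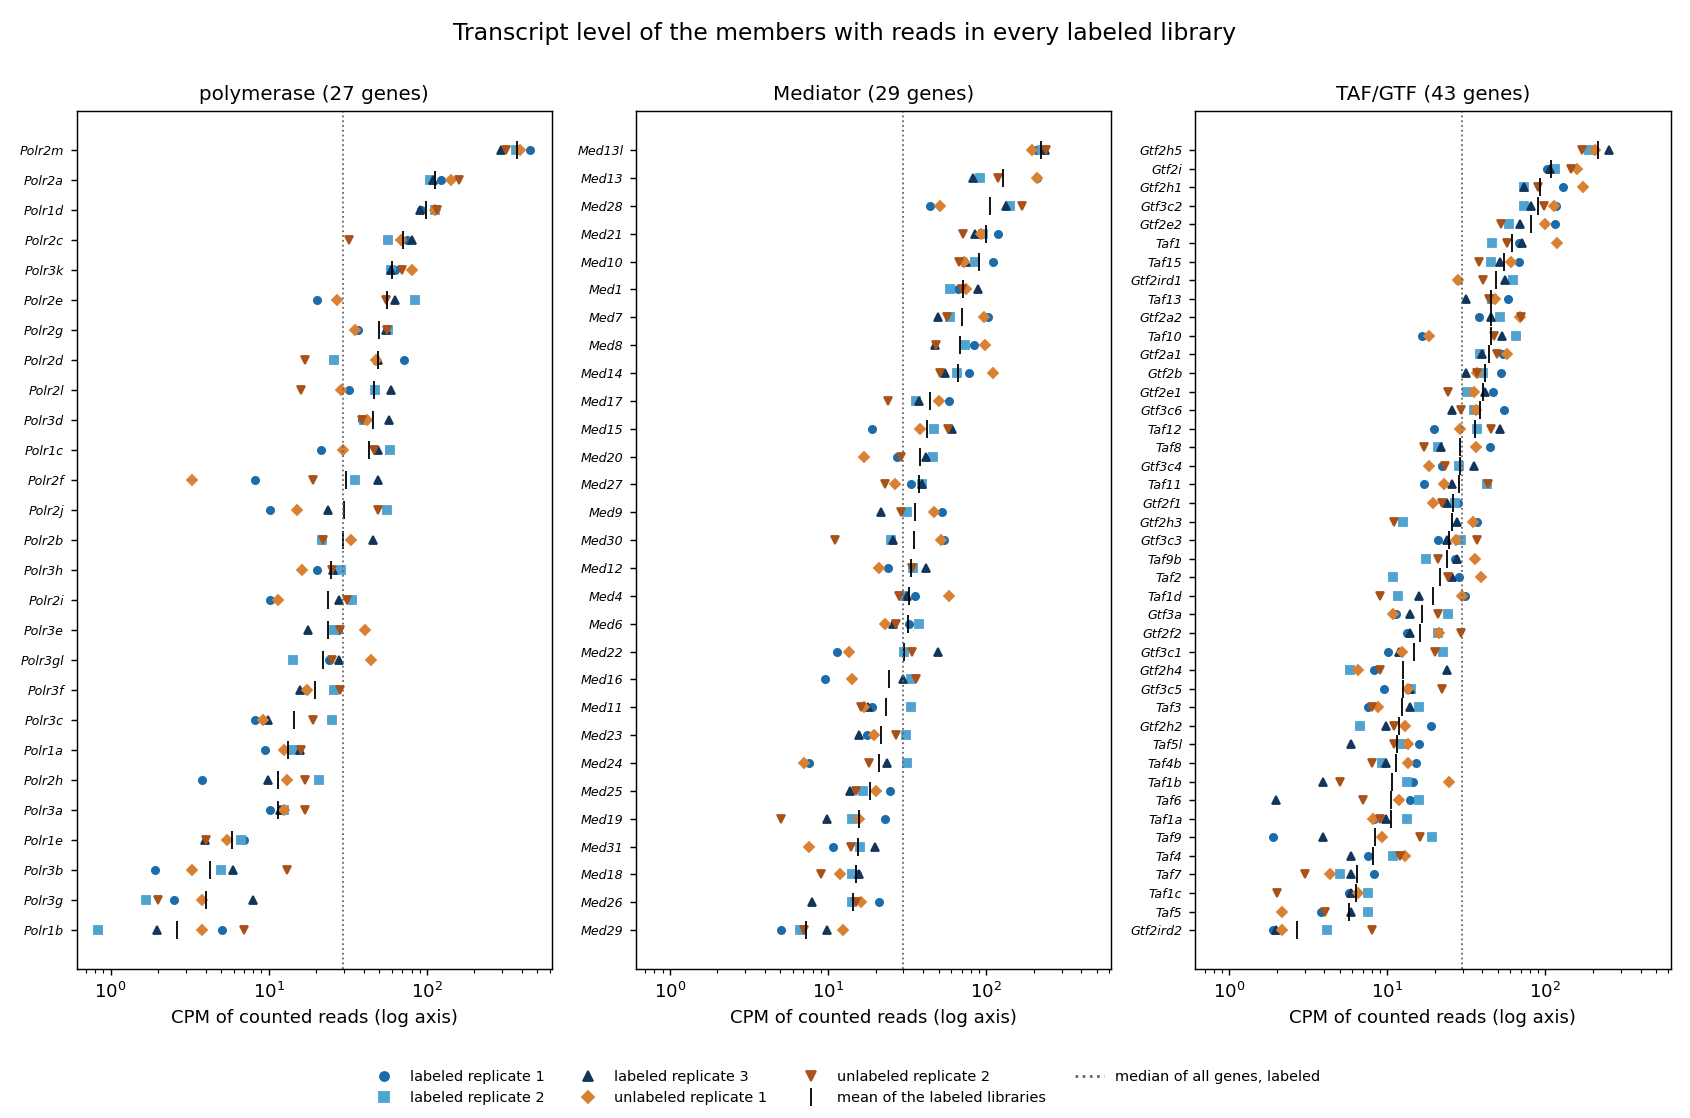
Transcript level (x axis, CPM of counted reads, log axis) of the 99 members with reads in every labeled library, by class. Symbols are single libraries, a library at 0 reads is not drawn, black ticks are means of the labeled libraries, and the dotted line is the median of all genes with reads in every labeled library. *Polr2m*, *Med13l* and *Gtf2h5* lead their classes at 370, 222 and 215 CPM.

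Levels are given as CPM of the reads counted on 1 interval per gene, labeled libraries. These 3′ end libraries yield 1 tag per transcript, so values were not divided by length. Fewer cells of a type and less RNA per cell cannot be told apart in such bulk samples. The median levels were 25.5 ± 4.49 CPM for 27 polymerase genes, 34.7 ± 2.62 for 29 Mediator genes and 22.4 ± 1.40 for 43 TAF/GTF genes with reads in every labeled library. The median over 11420 genes was 29.7 ± 0.470 CPM. The Mediator median was the highest class median in all 3 labeled libraries. The unlabeled libraries did not share one order. In unlabeled replicate 1 the polymerase median, at 27.1 CPM, was above that of Mediator at 26.6 and TAF/GTF at 24.4. In unlabeled replicate 2 Mediator was highest at 29.1 CPM, with polymerase at 25.1 and TAF/GTF at 22.1. These orders are descriptions, with no test.

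In each class, a few genes stood well above the rest. *Polr2m*, whose product binds polymerase II and competes with TFIIF, was highest of all members at 451, 366 and 292 CPM in the labeled and 387 and 315 CPM in the unlabeled libraries. *Polr2a* had 124, 105 and 109 CPM in the labeled and 143 and 161 CPM in the unlabeled libraries. *Polr1d*, shared by polymerases I and III, had 92.0, 113 and 90.9 CPM in the labeled libraries. *Polr2a* and *Polr1d* overlapped over the labeled libraries and are not separated by them. In the unlabeled libraries *Polr1d* had 208 and 116 reads, with 1 read at 0.543 and 1.00 CPM, and lay below *Polr2a* in both. Polymerase II genes had a median of 54.4 ± 2.06 CPM over 8 genes, polymerase III genes 20.3 ± 4.59 over 10, and the genes of polymerase I alone 5.88 ± 1.67 over 3. Genes shared by polymerases I and III had 70.9 ± 14.5 CPM over 2, and those common to all nuclear polymerases 36.5 ± 20.4 over 4.

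Mediator was led by *Med13l* and *Med13*, paralogs that link the kinase module to the rest of the complex. *Med13l* had 206, 226 and 235 CPM in the labeled and 195 and 239 CPM in the unlabeled libraries. *Med13* had 211, 92.1 and 83.0 CPM in the labeled and 211 and 118 CPM in the unlabeled libraries, with both replicate 1 libraries high. *Med28* had 44.4, 141 and 134 CPM and, unlabeled, 51.0 and 170 CPM, with both replicate 1 libraries low. The order of *Med13* and *Med28* therefore changed between libraries, and both stayed below *Med13l* except for *Med13* in the replicate 1 libraries. *Med12* had 24.1, 34.3 and 41.5 CPM in the labeled libraries. Its paralog *Med12l* had 1 read in labeled replicate 1 and 0 in the other 4 libraries. *Med14* and *Med1* had means of 66.2 ± 11.4 and 71.4 ± 15.5 CPM. Among TAF/GTF genes, *Gtf2i* with 102, 115 and 107 CPM and *Gtf2h1*, a core subunit of TFIIH, with 129, 73.6 and 73.1 CPM came after *Gtf2h5*.

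For several paralog pairs, one gene gave most of the reads. *Gtf2ird1* had 44, 75 and 28 labeled reads and *Gtf2ird2* 3, 5 and 1. *Polr3gl* had 38, 17 and 14 and *Polr3g*, its paralog in polymerase III, 4, 2 and 4. *Taf9b* had 42, 21 and 14 and *Taf9* 3, 23 and 2, so that *Taf9* was the higher in labeled replicate 2. The short *Taf9* interval is shared with *Ak6*. *Taf4* and *Taf4b* had similar levels, at 8.14 ± 2.52 and 11.4 ± 3.30 CPM. *Gtf2a1* had 44.0 ± 8.63 CPM, while its paralog *Gtf2a1l* had none. *Taf7* had 6.40 ± 1.66 CPM and its paralogs *Taf7l* and *Taf7l2* none. *Gtf2a1l* and *Taf7l* are known for germ cell expression. Reads of near-identical copies can be split by the mapping, so these ratios are uncertain.

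The reads of the members were compared between labeled and unlabeled libraries to see whether their levels differed with S4U. Without the replicate number as a block, no member passed the test (edgeR's quasi-likelihood test, adjusted p below 0.05, 0 of 91 members and 0% of 9807 genes). At an unadjusted p below 0.05, 1 member was higher and 0 were lower, with 2.84% and 3.11% of all genes. DESeq2 called 0 members at an adjusted p below 0.05, with 0.133% of all genes higher and 0.0612% lower. The one member was *Polr2l*, with 32.4, 46.9 and 59.3 CPM in the labeled and 28.8 and 16.1 CPM in the unlabeled libraries. Its groups do not overlap, and the log2 fold change was 1.08 (standard error 0.42, adjusted p = 0.792 from edgeR). With the replicate number as a block, edgeR called *Polr2l* and *Med10* higher, with 5.38% of all genes, and *Gtf2a2* and *Polr3gl* lower, with 6.29% of all genes. The blocked log2 fold change of *Polr2l* was 0.76 (standard error 0.27, adjusted p = 0.0418). No unlabeled library carries the number of labeled replicate 3, so the blocked effects come from replicates 1 and 2 only, with few residual degrees of freedom. The level of every labeled library was above both unlabeled ones for 6 members, with 8.19% of all genes, and below both for 7, with 13.1% of all genes. *Polr2a* and *Gtf2i* were among the lower ones, with log2 fold changes of -0.36 and -0.42. The median log2 fold change was 0.11 over the members and 0.02 over all genes.

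**Figure D4:**
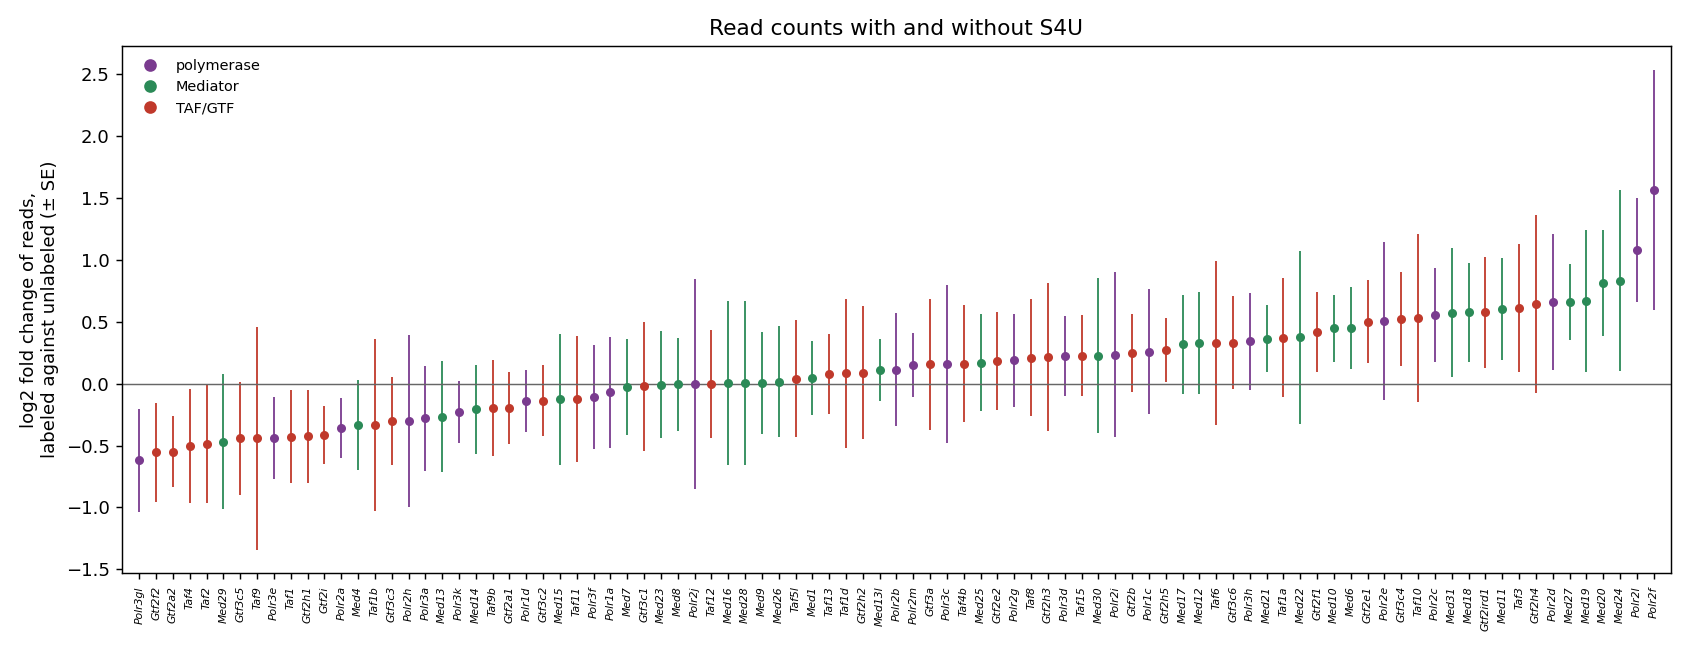
Log2 fold change of reads, labeled against unlabeled libraries (y axis), for the 91 members that passed the filter on low counts, in order. Points are edgeR estimates, bars are 1 standard error, and colours are the classes. None of the 91 has an adjusted p below 0.05 in this fit without the replicate block, and *Polr2l* has the smallest unadjusted p.

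Other genes of the transcription machinery, a list of 63 that includes TBP, the Mediator kinase, TFIIH kinase, elongation factors and pausing factors, was measured the same way. The median T>C rate of the 39 with 300 or more covered T positions was 0.0398 ± 0.000280, and their median level was 35.1 ± 3.01 CPM over 62 genes. In the limma test, 1 of 39 was above and 0 were below the library median, where 6.50% and 12.2% of all genes were. The one was *Larp7*, which holds the 7SK RNA that restrains elongation, with rates of 0.0477, 0.0513 and 0.0690 (limma, log odds above the library median by 0.31, standard error 0.09, adjusted p = 0.0273). Without labeled replicate 1, 2 or 3 the difference was 0.38, 0.32 and 0.27, with adjusted p of 0.0537, 0.122 and 0.0855. Over all alternatives that gave a value, the adjusted p of *Larp7* was between 0.00348 and 0.122. The lowest rate of the 39 was that of *Rtf1*, an elongation factor, with 0.0473, 0.0179 and 0.0181, in which labeled replicate 1 stood apart. Its log odds differed from the library median by -0.29 (limma, adjusted p = 0.313), and without labeled replicate 1 by -0.75 (adjusted p = 0.0376), which passed the test. Without labeled replicate 3, *Ssrp1*, named here after its values were seen, passed above the median by 0.19 (limma, adjusted p = 0.0449). By the share of reads with a conversion, *Aff4*, *Dr1*, *Ell2*, *Larp7* and *Leo1* passed above and *Cdk12*, *Drap1*, *Mllt3* and *Snapc5* below, where 18.1% and 23.8% of all genes did. This share also depends on the T positions covered per read. *Snapc5* had T>C rates of 0.0412, 0.0433 and 0.0413, each above its library median (limma estimate 0.10, adjusted p = 0.563), against an estimate of -0.50 by the share. The estimates of the other genes named for the share had the same sign in both measures. *Tbp* had 0.0345, 0.0339 and 0.0237. *Cdk8* and *Ccnc*, the kinase and cyclin of the Mediator kinase module, had 0.0461 ± 0.00957 and 0.0374 ± 0.00838. *Cdk7*, the kinase of TFIIH, had 0.0389 ± 0.00565, and *Cdk9*, the kinase that releases paused polymerase, had 0.03 ± 0.0118. No gene of the list passed edgeR's test of reads without the replicate number as a block, at an adjusted p below 0.05. This was among 59 tested, with 0% of 9807 genes.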

How the data were processed

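SLAMseq libraries of CF, 3 labeled and 2 unlabeled, were grouped by the submitters' labels. The authors used umi-tools for molecular identifiers and duplicates and SLAM-DUNK 0.4.3 for mapping to mm39, and deposited, per 3′ UTR interval, raw counts of reads, of reads with a conversion, of covered T positions and of conversions. The deposited conversion rate is a fraction, conversions divided by covered T positions. The deposited CPM divides reads by a number 7.58 to 28.9 times larger than the reads counted, so CPM of the counted reads was used.

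Repeated rows were dropped, and 1 interval stood for each gene, that of highest mean deposited CPM over labeled libraries. Overlapping genes were read from the GRCm39 annotation. The effect of S4U on rates was tested by a two-sided beta-binomial likelihood ratio, the kind of test the study used, where all 5 libraries covered a T. Rates within labeled libraries were tested with limma 3.58.1 on log odds (0.5 added to each count) minus the library median, with precision weights, for genes whose covered T positions numbered 300 or more in each labeled library. Reads were tested with edgeR 4.0.16 (quasi-likelihood, TMM, filterByExpr). Adjusted p-values are Benjamini-Hochberg over all genes tested. DESeq2 1.42.0, R 4.3.3, Python 3.11.15, numpy 2.4.6, pandas 2.3.3, scipy 1.17.1, numba 0.67.0 and matplotlib 3.10.9 were also used. Scripts were tested on simulated data.

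The members and lists were chosen with earlier results of these data known. Named were the largest subunits, Mediator scaffold and kinase module genes, *Med1*, *Taf1*, *Gtf2b*, *Gtf2i*, paralog pairs, in each class the 4 highest and 4 lowest rates and the 3 highest levels, members with changed reads, and, of the other machinery, *Tbp*, *Cdk7*, *Cdk8*, *Cdk9*, *Ccnc* and the highest and lowest rate. Alternatives were other coverage minimums, no weights, the share of reads with a conversion, summed intervals, other normalizations and filters, the replicate block and each library left out. Intervals and limits cover counting error only where a count of 0 is given.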

Additional observations from a re-analysis of the deposited data

How the results depend on the processing

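The number of members with a raised T>C rate was between 93 and 99 over the alternatives that kept all intervals, 76 at 100 covered T positions and 9 of 9 at 1000. Members above the library median numbered 0 at 1000 covered T positions (15.7% of all genes), where *Gtf2b* was not covered, 9 by the share of converted reads, with 18.1% of all genes, and 0 to 3 with a labeled library left out (3.83% to 6.20% of all genes). Members below it numbered 0 without weights (7.41% of all genes), 3 with the share of reads, with 23.8% of all genes, and 0 to 1 with a library left out (9.34% to 10.1%). The cause was not tested. The class medians moved by more than the SD between libraries for polymerase genes at 100 covered T positions (0.0376) and for Mediator genes when summed (0.0390). At 1000 covered T positions they did so for Mediator (0.0387, 4 genes) and TAF/GTF (0.0365, 3 genes). With each labeled library left out they were 0.0392 to 0.0410, 0.0363 to 0.0381 and 0.0381 to 0.0402 for polymerase, Mediator and TAF/GTF genes, the first moving most without labeled replicate 1 and the second without labeled replicate 3. On the deposited CPM the median levels were 2.02, 2.83 and 1.83, and with intervals summed the polymerase level was 20.9 CPM.

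Replicate numbers are shared by the groups, which were cultured in parallel, and no source states that a number marks a shared preparation. Deviations of same-numbered libraries from their group mean correlated at 0.87 and 0.78 over 4619 genes. With 2 unlabeled libraries, their deviations are equal and opposite, so the correlations are not independent of each other. With the replicate number as a block, 2 members had higher and 2 lower reads, among 528 and 617 genes in all. They were *Polr2l*, *Med10*, *Gtf2a2* and *Polr3gl*, from a fit with few residual degrees of freedom. No other alternative called a member for reads. Depth limited the rates: 55 of 105 members lacked 300 covered T positions.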
